A study of Mus musculus with 52 samples.

Results

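The regions described here carried an H3K27ac peak in both brown adipose tissue (BAT) libraries of cold-exposed TXNIP KO mice and in no other library of the same experiment. Peaks of the 8 H3K27ac lists with TXNIP in their title were merged on chromosomes 1 to 19 and X wherever they overlapped or touched, which gave 65199 regions. A list held a region if a peak overlapped it by at least 1 bp. Of the 65199 regions, 2043 (3.13%) were held by both knockout cold lists and by none of the other 6, and these are called members below. They were chosen by the authors' peak calls in these 8 lists, so their presence in knockout cold and absence elsewhere is a description and carries no test.

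All libraries were chromatin immunoprecipitation sequencing (ChIP-seq) of mouse BAT, from mice kept at room temperature (RT) or exposed to cold for 4 h. The 4 groups that defined the members were TXNIP KO in the cold, TXNIP KO at RT, TXNIP WT in the cold and TXNIP WT at RT, with 2 libraries each. Libraries that played no part in the choice were a cohort of WT mice profiled for H3K27ac (3 cold, 3 RT) and the factor libraries. The factor libraries were PPARG (3 cold, 3 RT), PPARA (3 cold, 2 RT), PGC1A (3 cold), CEBPB (2 cold), CEBPA (3 RT) and ERR1 (1 cold, 1 RT). Genotype was WT for the factor libraries used here, except that PGC1A cold replicate 3 is labelled HA-CEBPA KI, a knock-in. Tissue was fixed in 0.8% formaldehyde for 12 min, preceded for the factors by 25 min in 2 mM disuccinimidyl glutarate, a protein crosslinker. The sources used here do not state age, sex, strain or the way the Txnip allele was made. The labels do not say whether replicates were separate animals, so p-values measure the spread between these libraries, which may be technical. BAT holds several cell types, and in whole tissue fewer cells of a type and less acetylation per cell cannot be told apart.

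H3K27ac is acetylation of lysine 27 on histone H3, found at active promoters and enhancers. BAT burns fatty acids and glucose to make heat, and sympathetic signals acting through cAMP drive this response in the cold. TXNIP is an arrestin-domain protein that binds thioredoxin and restrains glucose uptake. PPARG is the nuclear receptor that maintains adipocyte identity, PPARA is its relative linked to fatty acid oxidation, ERR1 is the orphan receptor encoded by Esrra, PGC1A is a coactivator of these receptors, and CEBPA and CEBPB are the C/EBP factors of adipocytes.

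The sequences just upstream of gene starts are shown first for the 3 protein-coding genes whose starts lay in the strongest such members, because these members could be tied to a promoter without choosing a nearest gene. They are RefSeq sequences of GRCm38.p6, the build of the peak files, and cover the 250 bases before the start, read 5′ to 3′ on the gene's strand. Capitals mark matches, on either strand, to AGGTCA (the nuclear receptor core), TTGCNNAA (a C/EBP core), CACGTG (an E-box), TGACGTCA (the cAMP response element), GGGCGG (the GC box) or CCAAT, and overlapping matches would run together.

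Zdhhc15, chrX:104671065-104671314, minus strand: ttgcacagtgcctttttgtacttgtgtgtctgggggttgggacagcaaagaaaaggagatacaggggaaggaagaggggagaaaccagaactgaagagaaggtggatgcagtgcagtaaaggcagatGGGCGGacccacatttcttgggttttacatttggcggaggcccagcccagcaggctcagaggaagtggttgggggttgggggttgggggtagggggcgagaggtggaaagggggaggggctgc
Map3k9, chr12:81781171-81781420, minus strand: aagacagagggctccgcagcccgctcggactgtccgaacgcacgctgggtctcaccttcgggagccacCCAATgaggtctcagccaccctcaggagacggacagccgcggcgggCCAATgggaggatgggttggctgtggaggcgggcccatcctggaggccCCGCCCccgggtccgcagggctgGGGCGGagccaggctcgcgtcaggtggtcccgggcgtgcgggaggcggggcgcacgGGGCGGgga
Cela1, chr15:100687921-100688170, minus strand: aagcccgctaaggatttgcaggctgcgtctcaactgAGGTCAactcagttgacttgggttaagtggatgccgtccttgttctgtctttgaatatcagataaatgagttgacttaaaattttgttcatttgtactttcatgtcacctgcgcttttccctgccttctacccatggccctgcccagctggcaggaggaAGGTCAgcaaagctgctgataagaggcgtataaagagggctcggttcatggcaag

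The Map3k9 stretch was GC-rich (74.0% G or C) with 3 GC boxes and 2 CCAAT matches, the Zdhhc15 stretch had 1 GC box, and the Cela1 stretch had 2 nuclear receptor cores. Only the Map3k9 stretch lay wholly in its member. The Zdhhc15 and Cela1 members ended at 104671076 and 100687991, so most of their stretches lay outside them. The Zdhhc15 GC box and the first Cela1 core were in the outside parts. Over all 50 listed starts held by members (45 gene symbols), 18% of the stretches held AGGTCA against 14.1% of all 32619 listed stretches. GGGCGG was in 36.0% against 33.0%, CCAAT in 38.0% against 34.0%, CACGTG in 8% against 6.06%, TTGCNNAA in 6% against 9.62% and TGACGTCA in 4% against 1.56%. With 50 stretches, 1 stretch more or less moves a share by 2 percentage points, so no motif is singled out.

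Knockout cold had the largest number of regions held by its own 2 lists alone. There were 65 such regions for knockout RT, 263 for wild type cold and 336 for wild type RT, while 23950 regions were held by all 8 lists. The knockout cold lists were also the longest, with 54832 and 53651 peaks against 37555 to 47548 in the other 6, and covered 108 and 102 Mb against 73.2 to 96.9 Mb. With every list reduced to the 37555 peaks of highest −log10 p, knockout cold still had the most regions of its own, but 580 instead of 2043, beside 126, 272 and 458 for knockout RT, wild type cold and wild type RT. Of the 2043 members, 248 (12.1%) overlapped one of those 580.

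**Figure D1:**
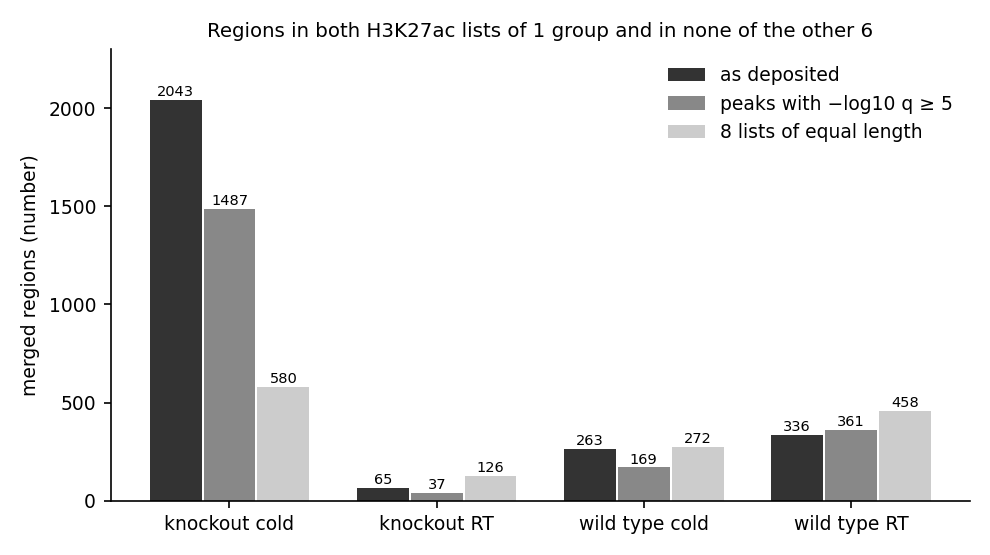
Number of merged regions held by both H3K27ac lists of 1 group and none of the other 6 lists (vertical axis, bars from 0), by group, with the lists as deposited, with peaks of −log10 q of at least 5, and with all 8 lists cut to 37555 peaks. Knockout cold has 2043, 1487 and 580 regions under the 3 settings, above the other groups in each.

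The members were narrow and weak relative to the regions shared by all lists. Their median width was 760 bp, with a range of 281 to 6584 bp, whereas regions of all 8 lists had a median of 2921.5 bp. The authors' fold enrichment had a median of 3.04 for member peaks in replicate 1 and 3.20 in replicate 2, against 9.14 and 9.10 for peaks of the same libraries in regions of all 8 lists. Member peaks thus sat low in their own lists, with median percentiles of 22.8 and 21.7 by fold.

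Strength differed between the knockout cold libraries from member to member. Over the 2043 members, the log2 fold in replicate 1 and in replicate 2 had a Pearson r of 0.22 and a Spearman rho of 0.22, as a description over regions that share the same 2 libraries. The fold was higher in replicate 2 at 1207 members (59.1%). In 397 members (19.4%) both peaks had a −log10 q of at least 5, and 5 members had a fold of at least 5 in both libraries. At the edge of the rule, 11299 regions were held by 1 knockout cold list and nothing else, with median folds of 2.89 and 2.87 in replicates 1 and 2. Another 2183 regions were held by both knockout cold lists and exactly 1 other, with median folds of 3.33 and 3.46, and that other list was wild type cold replicate 2 for 1109 of them and wild type cold replicate 1 for 509. The values just inside the rule therefore lay between those just outside it.

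**Figure D2:**
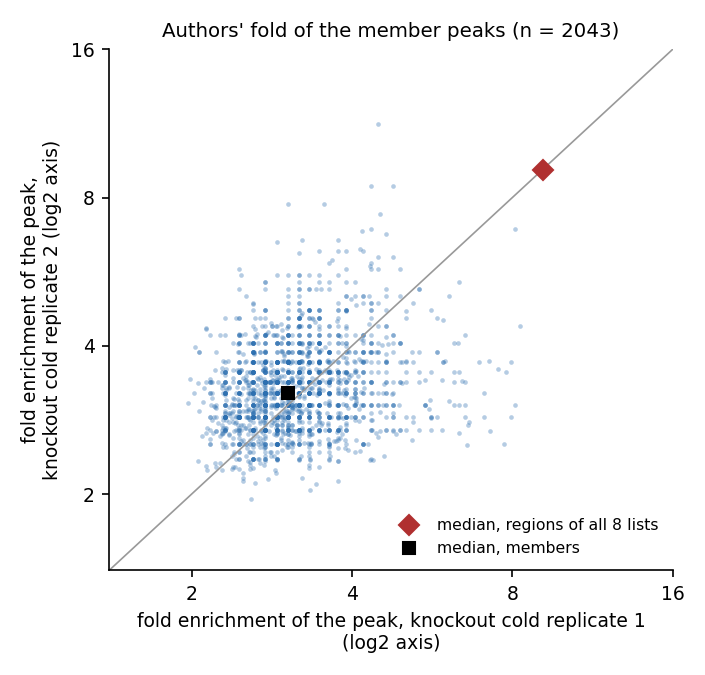
Authors' fold enrichment of the strongest peak of each of the 2043 members in knockout cold replicate 1 (horizontal) and replicate 2 (vertical), both on log2 axes, with the line of equality. The members' median (square) lies at about 3 in both libraries, below the median of peaks in regions of all 8 lists (diamond, 9.14 and 9.10).

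The 12 members with the highest lower −log10 q included sites near genes of several kinds. The strongest by this measure was at chr19:9835663-9836078, 11.5 kb from Scgb2a2, a secretoglobin gene, with folds of 8.10 and 6.91 in replicates 1 and 2. It lay 0.286 kb from a region of all 8 lists, beside a stretch acetylated in every group. The member at chr5:32193909-32195074 was 36.1 kb from Fosl2, which encodes an AP-1 transcription factor, with folds of 4.92 and 5.73.

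Other strong members overlapped factor peaks. The member at chr8:47876894-47879236 lay in Wwc2, 50.6 kb from the nearest region of all 8 lists, with folds of 4.77 and 8.43. It overlapped peaks in all 3 PPARG RT lists and in no PPARG cold list. The member at chr17:44091236-44091974, 4.33 kb from Enpp4, had folds of 5.35 and 5.22 and overlapped all 3 CEBPA RT and both CEBPB cold lists. A member in Tnni1, which encodes slow skeletal troponin I, at chr1:135793567-135795244, had the largest fold of any member in replicate 2, 11.3, beside 4.48 in replicate 1, and overlapped all 6 PPARG lists.

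Members were mostly intragenic and away from gene starts. Inside protein-coding gene bodies lay 1576 members (77.1%), close to the 76.4% of regions of all 8 lists and 71.6% of all merged regions. The share was 73.8% for the regions of wild type cold alone and 49.4% for those of wild type RT alone. A listed gene start lay in 42 members (2.06%), against 16.4% of all merged regions and 39.1% of regions of all 8 lists. The share was about as low for the regions of 1 other group alone, 2.08% for wild type RT, 1.54% for knockout RT and 0.760% for wild type cold. Members whose centre fell in a body lay a median of 22.7 kb from the gene's start. The share of merged regions that were members ranged over chromosomes from 2.62% on X to 3.83% on chromosome 1.

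The genes that held members were mostly acetylated in all 8 lists as well. At least 1 member lay in 1206 gene bodies, and 1108 of these bodies (91.9%) also held a region of all 8 lists, against 57.2% of all 21627 gene bodies. Among member genes with a listed start, 843 of 982 (85.8%) had that start in a region of all 8 lists, against 53.2% of all genes with a listed start. The median member was 6.27 kb from the nearest region of all 8 lists, and 66.4% of members lay within 5 kb of a peak of at least 1 of the other 6 lists. Counted per gene, as in these shares of genes, bodies that held a member were longer, with a median of 62.3 kb against 17.3 kb for all gene bodies. Gene length was not held equal in the shares over all genes. Counted per region, the body around a member had a median length of 74.9 kb and that around any merged region 75 kb.

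Nearest genes numbered 1562, of which 1230 had 1 member, 236 had 2 and 66 had 3. Kansl1, which encodes a scaffold of a histone acetyltransferase complex, had the most, with 7 members spread from 41.3 to 111 kb from its start and folds of 2.17 to 3.54. With 10 kb added on each side, the Kansl1 locus was covered by 40.2 and 38.8 kb of peaks in knockout cold, 12.5 and 13.9 kb in knockout RT, 20.5 and 24.9 kb in wild type cold and 11.8 and 12.3 kb in wild type RT. The groups did not overlap there: knockout cold was highest, which is the contrast that chose the members, and wild type cold was next.

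Camk2d, Ahcyl2, Prkag2, Cpeb3 and Ebf1 had 6 members each, and Sh3kbp1 and Ralgapa2 had 5 each. Prkag2 encodes a regulatory subunit of AMP-activated protein kinase, and its locus was covered by 82.0 and 67.7 kb in knockout cold against 34.9 to 52.0 kb in the other 6 libraries. Ebf1, an adipocyte transcription factor gene, had 105 and 129 kb in knockout cold against 75 to 113 kb in the others, so the groups overlapped. The Ahcyl2 locus, which encodes a relative of the S-adenosylhomocysteine hydrolase, differed in its order. It was covered by 18.2 and 20.4 kb in knockout cold, 13.2 and 9.15 kb in knockout RT, 2.26 and 5.62 kb in wild type cold and 5.82 and 4.96 kb in wild type RT, so both knockout groups lay above both wild type groups. At Prkag2, Ebf1 and Ahcyl2 the members add length to the knockout cold libraries alone, so a high rank of these libraries is favoured by the choice.

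Members were counted in 11 pathway lists through the nearest gene, and the fatty acid oxidation list had the highest share. Of the 128 merged regions nearest to its 24 genes, 15 (11.7%) were members, against 3.13% of all merged regions, and they belonged to 10 genes. Etfa, which encodes a subunit of the electron transfer flavoprotein, and Hadh, a dehydrogenase of the oxidation spiral, had 3 each, and Slc25a20, the mitochondrial acylcarnitine carrier, had 2. Acaa2, Acadm, Cpt2, Echs1, Ehhadh, Hadhb and Ppara had 1 each. The share stayed above that of all regions when members were defined otherwise: 5 of 79 (6.33% against 3.17%) with peaks of −log10 q of at least 5, 2 of 80 (2.50% against 1.18%) with lists of equal length, 23 of 112 (20.5% against 11.4%) without knockout cold replicate 1, and 42 of 129 (32.6% against 15.2%) without knockout cold replicate 2. The definitions without a library were added after the data were seen, and the one with lists of equal length rests on 2 regions. All of them draw on the same Txnip lists, and those without a library kept all 2043 members, so none is an independent check.

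From this list the rule for naming members gave Slc25a20, Etfa and Echs1. Peaks at the Etfa locus covered 14.2 and 12.4 kb in knockout cold, 7.74 and 7.40 kb in knockout RT, 6.31 and 5.30 kb in wild type cold and 5.73 and 6.47 kb in wild type RT. The Slc25a20 locus had 10.9 and 9.68 kb in knockout cold and 4.40 to 6.64 kb elsewhere. At both loci the knockout cold libraries were the highest, which is the contrast that chose the members. They were also highest per 100 Mb covered by the library at Etfa (13.2 and 12.1 kb against 5.46 to 10.6 kb) and Slc25a20 (10.1 and 9.47 kb against 5.40 to 7.23 kb). The Echs1 locus differed, and the groups overlapped there. It had 11.7 and 9.58 kb in knockout cold against 7.29 to 9.75 kb elsewhere. Per 100 Mb it had 10.8 and 9.38 kb against 8.48 to 11.1 kb.

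Insulin and growth factor signalling genes had 23 members of 454 regions (5.07%), at 13 of 22 genes. Irs1, an insulin receptor substrate, and Pik3ca and Pik3r1, subunits of phosphoinositide 3-kinase, were among the genes with 3 members each. Genes of cAMP signalling and the immediate early response had 14 of 255 (5.49%), among them Pde3b with 3, Fos and Crtc3 with 2 each, and Fosl2 and Jun with 1 each. With lists of equal length the insulin list was at 1.21% against 1.18% of all regions, and the cAMP list at 2.72%.

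The Insr member illustrates a site away from its gene. It lay at chr8:3313347-3314380, 33.7 kb from Insr, the insulin receptor gene, and 32.6 kb from the nearest region of all 8 lists, with folds of 3.61 and 3.88, and it overlapped all 6 PPARG lists. The Insr locus was covered by 37.7 and 33.0 kb in knockout cold, 12.9 and 21.7 kb in knockout RT, 21.6 and 28.8 kb in wild type cold and 20.9 and 17 kb in wild type RT. The strongest Irs1 member, chr1:82250941-82252286, lay 4.57 kb from constant acetylation with folds of 3.47 and 3.54, and the Irs1 locus had 36.7 and 29.9 kb in knockout cold against 12.6 to 25.7 kb in the other 6 libraries. At both loci knockout cold was highest without overlap. This is the contrast that chose the members, and the Irs1 member itself adds length to knockout cold alone. The Insr member lay outside the 10 kb flank of its locus. The rule for naming members also gave Stat5a from this list, and its locus differed. The Stat5a locus had 8.663 and 8.965 kb in knockout cold, below every RT library. It had 10.29 and 11.992 kb in knockout RT and 11.155 and 11.005 kb in wild type RT. Both wild type cold libraries were lower than knockout cold at Stat5a.

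The adipocyte identity list had 11 of 248 regions (4.44%), which were 6 at Ebf1, 3 at Acsl1 and 2 at Cebpb. The thermogenesis list had 10 of 251 (3.98%), at Ebf2, Esrrg, Otop1 and Zfp516 with 2 each and Esrra and Ppargc1a with 1 each. Lipolysis and triglyceride synthesis had 4 of 91 (4.40%), lipogenesis 8 of 202 (3.96%), glucose uptake and glycolysis 4 of 121 (3.31%), and heat shock and the unfolded protein response 2 of 69 (2.90%). TXNIP, arrestin and redox genes had 3 of 104 (2.88%), and glucocorticoid and circadian genes had 4 of 202 (1.98%). Apart from the fatty acid oxidation list, these shares ran from 1.98% to 5.49%.

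The 3 members of the redox list were at genes of the thioredoxin system, to which TXNIP binds. The member in Txn1, the gene of thioredoxin itself, at chr4:57952555-57953010, had folds of 2.89 and 3.03 and lay 0.691 kb from a region of all 8 lists. The member in Txnrd1, which encodes a thioredoxin reductase, at chr10:82893107-82894043, had folds of 3.48 and 2.27. The member in Prdx5, a peroxiredoxin gene, at chr19:6904880-6906858, had folds of 3.18 and 5.56 and overlapped 2 PPARG cold and 3 PPARG RT lists. With a share of 2.88% the list was at the level of all regions.

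**Figure D3:**
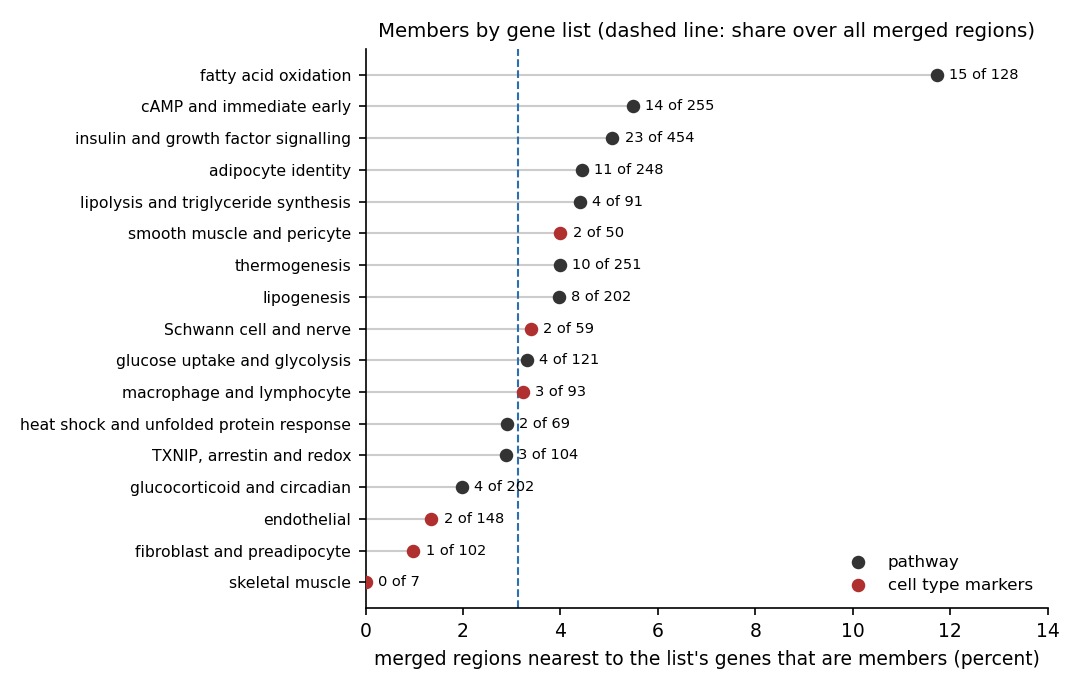
Percent of the merged regions nearest to a list's genes that are members (horizontal axis), for 11 pathway lists and 6 lists of cell type markers, with the counts beside each point. Fatty acid oxidation is at 11.7%, and the dashed line is the 3.13% of all merged regions.

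Txnip itself was no check of the genotype. Its body at chr3:96557957-96561857 was covered over all 3.901 kb in each of the 8 libraries, knockout included. Ucp1, which encodes the uncoupling protein that defines brown adipocytes, had 14.3 to 19.8 kb of peaks at its locus in the 8 libraries. At Ppargc1a, which encodes PGC1A and is induced in the cold, the locus had 55.1 and 35.3 kb in knockout cold, 39.5 and 37.4 kb in wild type cold, and between 14 and 20.7 kb in the 4 RT libraries. Its 1 member, at chr5:51849069-51850316, lay 266 kb from the gene's start and overlapped all 6 PPARG lists, all 3 CEBPA lists, both CEBPB lists and 2 of 3 PPARA cold lists.

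Knockout cold replicate 1 stood apart at loci of immune cells. Peaks at the 16 loci of the macrophage and lymphocyte list summed to 147 kb in that library, 63.0 kb in knockout cold replicate 2 and 29.1 to 53.1 kb in the other 6. Of the 16 loci, 13 were highest in knockout cold replicate 1, and 6 were higher in both knockout cold libraries than in all others. Ptprc, the gene of the leukocyte antigen CD45, had 22.4 kb in replicate 1 and 2.58 kb in replicate 2, with 0.572 to 3.15 kb elsewhere. Cd8a and Ms4a1, markers of cytotoxic T cells and B cells, were at 0 in all 8.

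Under the rule, which needs both knockout cold lists, 3 of the 93 regions of this list were members, at Runx1 and Itgam. That share of 3.23% was at the level of all merged regions (3.13%). Without replicate 2 as a condition the macrophage and lymphocyte list had 52 of 92 regions (56.5% against 15.2% of all regions), and without replicate 1 it had 5 of 56 (8.93% against 11.4%). The other marker lists had 2 of 148 regions (1.35%, endothelial), 1 of 102 (0.980%, fibroblast and preadipocyte), 2 of 59 (3.39%, Schwann cell and nerve), 2 of 50 (4.00%, smooth muscle and pericyte) and 0 of 7 (skeletal muscle). Summed coverage of the endothelial loci was 404 and 412 kb in knockout cold against 358 to 439 kb in the others, but per 100 Mb covered by the library it was 374 and 403 kb against 453 to 489 kb, below all 6. The fibroblast and preadipocyte loci had 107 and 99.4 kb against 59.0 to 93.9 kb, and per 100 Mb 99.2 and 97.2 kb against 80.6 to 104 kb, so they were highest in knockout cold only without scaling. The 10 brown adipocyte loci behaved likewise, with 374 and 326 kb against 258 to 319 kb, and per 100 Mb 346 and 319 kb against 321 to 366 kb. The Schwann cell and nerve loci, with 88.7 and 73.9 kb against 47.9 to 64.2 kb, were highest in knockout cold on both scales as a sum. Of these 12 loci, 2 were higher in both knockout cold libraries than in all others, and 3 were at 0 in all 8. Mbp alone had 43.4 and 28.2 kb in knockout cold against 16.1 to 23.5 kb. The smooth muscle and pericyte loci had 62.5 and 55.5 kb against 44.1 to 66.7 kb. Per 100 Mb they had 57.8 and 54.3 kb against 60.3 to 75.8 kb, below all 6 others, as at the endothelial loci. The part of these other cells in the members was not tested.

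**Figure D4:**
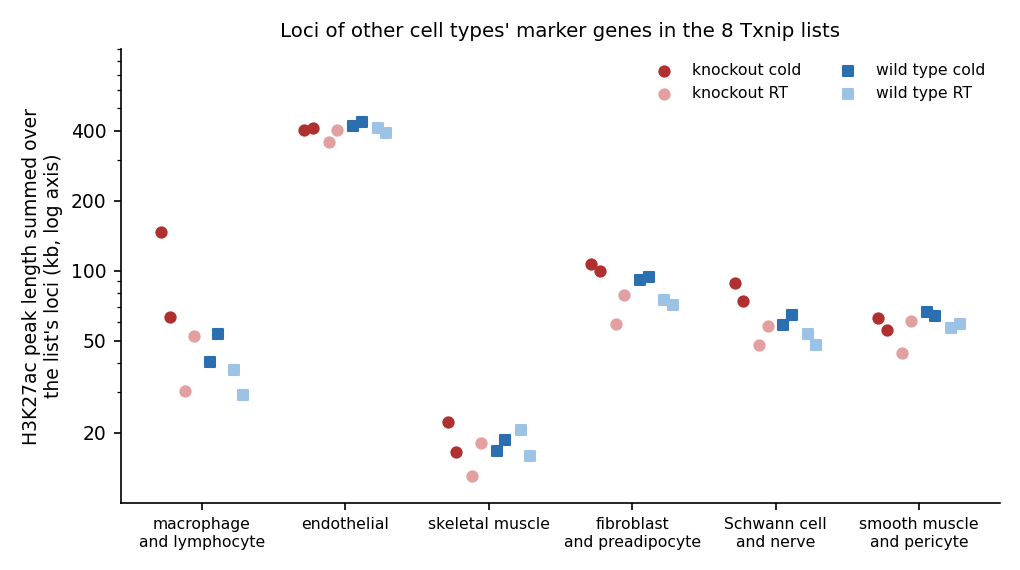
H3K27ac peak length summed over the loci of each marker list (vertical axis, kb, log scale, not scaled to the covered length of a library) in the 8 Txnip libraries, 2 points per group. Knockout cold replicate 1 is at 147 kb for macrophage and lymphocyte genes, above all 7 other libraries.

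Few gene starts lay in members, and the strongest of protein-coding genes were those whose upstream sequences are printed above. Zdhhc15, which encodes a palmitoyltransferase, had its start in a member at chrX:104670269-104671076 with folds of 5.20 and 4.89, and its locus had 0.808 and 0.568 kb of peaks in knockout cold and none in the other 6 libraries. Map3k9, a kinase gene, had its start in a member at chr12:81780651-81782016 with folds of 3.89 and 3.99. The Map3k9 locus had 3.665 kb in knockout cold replicate 1 and 0.595 kb in replicate 2, and was likewise at 0 in the other 6. At both loci this is the contrast that chose the members. The member over the start of Cela1, an elastase gene, at chr15:100686409-100687991, was stronger in replicate 1 (7.51) than in replicate 2 (3.60). Starts of the immune genes Lilr4b, Clec4a2, Cd80, Oas3 and Slamf6, named here after their values were seen, were also held, and at these 5 the fold was higher in replicate 1 (4.92 to 8.10) than in replicate 2 (2.70 to 3.71). The same order was seen at starts of other genes, such as Tmem221 (5.91 and 3.41), Fam169b (5.49 and 3.03) and Gatm (5.33 and 2.70). The opposite order was seen at Eno2 (2.45 and 3.88) and Mab21l3 (2.55 and 3.33), among others. The start of Cd300ld3, a further immune gene, was held with folds of 4.34 and 2.36. Over all members the fold was higher in replicate 2 at 59.1%. These genes were picked by hand, and whether the order was particular to immune genes was not tested.

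The WT cohort, which had no part in the choice, rarely held the members, and its cold libraries held fewer than its RT libraries on average. Members overlapped by a peak numbered 50, 27 and 66 in cold replicates 1 to 3, and 232, 118 and 65 in RT replicates 1 to 3. The ranges overlapped, because RT replicate 3 lay within the cold values. The means were 47.7 ± 19.6 (SD, n = 3) in the cold and 138 ± 85.3 (SD, n = 3) at RT, a difference that did not pass a two-sided exact permutation test over libraries (p = 0.2, adjusted over 3 tests 0.2), for which the smallest possible p was 0.1. Without RT replicate 1 the difference was −43.8 members in place of −90.7. Cohort peaks were narrower than those of the Txnip lists, with medians of 600 to 660 bp against 1132 to 1364 bp.

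Regions of wild type cold alone and of wild type RT alone, found by the same rule, gave other values in the cohort. On average 18.1% ± 8.84 (SD, n = 3) of those 263 regions were in a cohort cold list and 7.98% ± 3.97 (SD, n = 3) in an RT list, whereas for the members the shares were 2.33% ± 0.960 and 6.77% ± 4.18. The members' share minus that of the wild type cold regions was −24.9 to −8.96 percentage points in the 3 cold libraries and −2.14 to −0.308 in the 3 RT libraries. The 2 ranges did not overlap, and a two-sided exact permutation test of this difference, made after the data were seen, gave its smallest possible p of 0.1. Of the 336 regions of wild type RT alone, 3.87% ± 1.86 (SD, n = 3) were in a cohort cold list and 25.3% ± 8.18 (SD, n = 3) in an RT list. The members' share minus theirs was −3.14 to 0.662 percentage points in the cold and −22.9 to −12.4 at RT, the opposite order, again with the smallest possible p of 0.1 by the same exact permutation test.

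Of the 2043 members, 1636 (80.1%) were in none of the 6 cohort lists, against 39.7% of all merged regions. A cohort gain, meaning all 3 cold lists and no RT list, was seen at 1 member, beside 0.528% of all merged regions. It lay in Swap70, which encodes a guanine nucleotide exchange factor, at chr7:110265137-110265938. A loss, meaning all 3 RT lists and no cold list, was seen at 8 members, beside 1.65% of all merged regions. The strongest of these 8 lay in Arhgef12, Chd1 and Fbxl17. As shares of the members these are 0.0489% and 0.392%, both below the shares of all regions.

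Covered length was compared between cohort cold and RT with limma on log2(scaled length + 100 bp) over 30141 merged regions with peaks in at least 3 of the 6 libraries. Only 33 members passed that filter, 7 of them were called at an adjusted p under 0.05, and 11.4% of all tested regions were called. A member with peaks in the 3 libraries of 1 condition only could pass the filter only by differing, so this count and the calls named from it are a description, given without their p-values. Swap70 was the 1 called member higher in the cold, with 356, 340 and 293 bp covered in the cold and 0 bp in each RT library.

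The 6 members called lower in the cold were nearest to Gpam, Chd1, Arhgef12, Ehbp1, Dock4 and Fbxl17, of which Ehbp1 and Dock4 are named after their values were seen. The member 2.44 kb from Gpam, which encodes the mitochondrial acyltransferase that starts triglyceride synthesis, was covered by 595, 324 and 708 bp at RT and 0 bp in each cold library. It also overlapped all 6 PPARG lists. None of the 7 was called by limma with the replicate number as a block, or without cold replicate 2, cold replicate 3 or RT replicate 1.

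Loci, that is gene bodies with 10 kb on each side, were then compared in the cohort. Of 1455 tested loci nearest to members, limma called 209 (14.4%) in the cold versus RT comparison, 83 higher and 126 lower, where 10.9% of all 14186 loci were called, 4.72% higher and 6.22% lower. The loci of members were covered by medians of 4.21 to 5.68 kb in the 6 cohort libraries, and all loci by 1.38 to 1.58 kb. The median log2 difference was −0.02 for the member loci and 0.04 for all loci. Without scaling to library totals 74 were called (5.09%), 9 higher and 65 lower, where 4.20% of all loci were called, 117 higher and 479 lower. Leaving out 1 library gave 63 to 301 called member loci (4.31 to 20.6%), where 3.11 to 14% of all loci were called.

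Among the loci of named genes, Ahcyl2 fell most. It was covered by 2.41, 1.96 and 2.30 kb in the cold and 7.64, 4.68 and 5.44 kb at RT (log2 difference −1.13, SE 0.125, limma adjusted p = 0.00352). Ralgapa2, Sntb1 and Arap1 were also called lower, and 8, 5 and 4 of 14 alternative settings kept these calls. Ppargc1a was called higher, with 27.7, 23.7 and 31.9 kb in the cold and 22.2, 18.8 and 13.8 kb at RT (log2 difference 0.70, SE 0.154, limma adjusted p = 0.0270). Cdh5 and Kdr, which mark endothelium, were called higher by 0.76 and 0.57 on the log2 scale (limma adjusted p = 0.0043 and 0.0141). Litaf, Gm826, Lrrc8b, Cd34 and Chd1 were called higher too, and 7 of 14 alternative settings kept the call at each of Lrrc8b, Cd34 and Chd1. The Chd1 locus had 6.20, 5.45 and 5.53 kb in the cold and 4.73, 4.39 and 4.26 kb at RT, although its member was called lower. The members nearest to Cdh5, Kdr, Cd34 and Gm826 lay 619, 102, 35.9 and 85.2 kb from these genes, outside the loci compared. None of the 10 tested loci of the fatty acid oxidation list with members was called, and their median log2 difference was −0.24.

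The 3 loci with the smallest p, named after their values were seen, fell in the cold without overlap between the groups. Atp10a, which encodes a lipid-transporting ATPase, went from 3.48, 2.74 and 2.96 kb at RT to 0.501, 0.200 and 0.551 kb in the cold. Angpt1, an angiopoietin gene, had 20.6, 15.7 and 15.9 kb at RT and 6.94, 4.86 and 7.17 kb in the cold. Ntrk3, a neurotrophin receptor gene, had 15.1, 10.9 and 10.8 kb at RT and 3.05, 1.39 and 1.93 kb in the cold.

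Factor sites were sparser at the members than at merged regions in general. A site of a factor here means a peak in more than 1 list of its group where there were 2 or 3 lists, and a peak in the list where there was 1. No site of any factor, cold or RT, lay in 1363 members (66.7%), against 46.7% of all merged regions and 13.8% of regions of all 8 lists. The share without a site was 64.3% for regions of wild type cold alone, 46.7% for those of wild type RT alone and 52.3% for those of knockout RT alone. PPARG sites lay in 220 members in the cold (10.8%, against 37.0% of all merged regions) and 320 at RT (15.7% against 41.0%). CEBPB sites lay in 207 (10.1% against 23.7%), CEBPA sites in 163 (7.98% against 24.5%), PPARA sites in 23 in the cold (1.13% against 9.14%) and 61 at RT (2.99% against 21%), and PGC1A sites in 3 (0.147% against 3.42%). ERR1 peaks lay in 333 members (16.3% against 33.2%) in the cold and 109 (5.34% against 16%) at RT, each from 1 library without a replicate, and the cold list had 45800 peaks to the 16020 of the RT list. Members are narrow, and narrower regions have less length in which a peak can fall.

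A minority of members carried several factors. PPARG and CEBPB cold sites met in 80 members (3.92%, against 17.8% of all merged regions), and 36 of these 80 also had an ERR1 cold peak (1.76% of members against 14.5%). Sites of 3 or more factors in the cold lay in 48 members (2.35% against 17%). The member at chr7:113443874-113444344, 55.2 kb from Pth, overlapped all 6 PPARG, all 5 PPARA, all 3 CEBPA and both CEBPB lists, with folds of 4.34 and 4.72. Among the 397 members with both −log10 q values of at least 5, PPARG peaks lay in 66, 74 and 75 in the cold (16.6 to 18.9%) and 107, 118 and 87 at RT (21.9 to 29.7%). These shares were above those of all members, and RT was again above cold in each library. In the WT cohort the same 397 members were overlapped in 17, 8 and 21 cases in the cold and 54, 28 and 20 at RT, with the groups overlapping by 1 library.

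**Figure D5:**
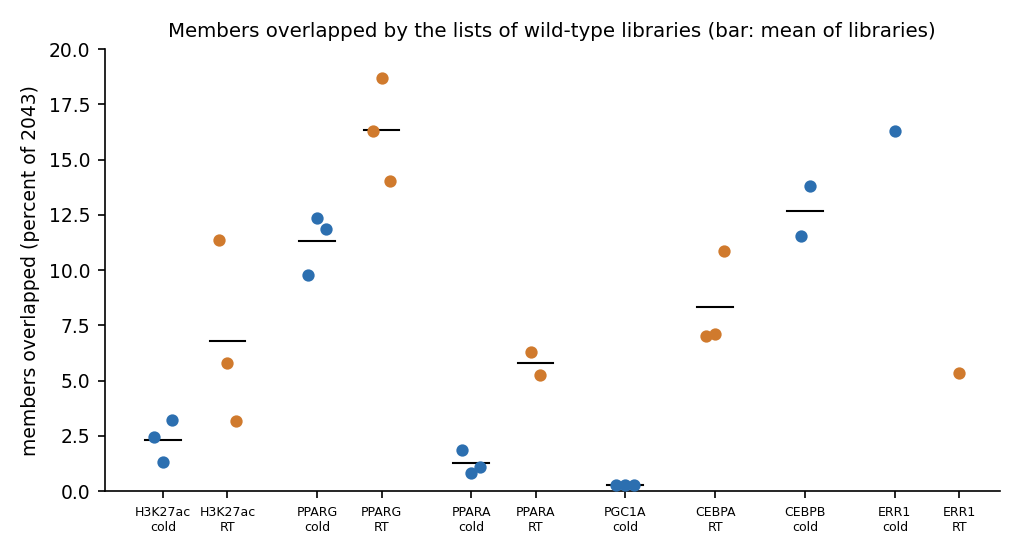
Percent of the 2043 members overlapped by each list of the libraries that did not define them (vertical axis), by target and temperature, 1 point per library and a bar at the mean of a group with more than 1 library. PPARG RT lists lie above the PPARG cold lists, while the H3K27ac cohort groups overlap.

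PPARG peaks overlapped more members in each RT library than in any cold library. The cold lists overlapped 200, 253 and 242 members and the RT lists 333, 382 and 287, with no overlap between the groups. The means were 232 ± 28 (SD, n = 3) and 334 ± 47.5 (SD, n = 3), and the two-sided exact permutation test gave its smallest possible p of 0.1 (adjusted over 3 tests 0.15), which this design cannot lower. With the 6 lists cut to 33272 peaks the means were 202 and 260, and the ranges of 200 to 205 and 241 to 275 stayed apart. As a percent of all merged regions that a list overlapped, members made up 0.893 to 1.01% in the cold and 1.14 to 1.33% at RT.

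Few members gained PPARG in the cold. Held by all 3 PPARG cold lists without any at RT were 7 members, beside 0.761% of all merged regions, and held by all 3 at RT without any in the cold were 41, beside 2.1%. The 4 strongest of the 7 lay in Fam20c, Pdzrn3 and Dock5 and 141 kb from Spring1. The Fam20c member, chr5:138774489-138776732, had folds of 4.63 and 3.71, and Fam20c encodes a kinase of secreted proteins. The Fam20c locus as a whole went the other way. Its PPARG peaks covered 2.26, 2.92 and 2.31 kb in the cold and 4.67, 5.91 and 4.12 kb at RT (log2 difference −0.55, SE 0.118, limma adjusted p = 0.0265). The Pdzrn3 and Dock5 members also overlapped both CEBPB cold lists. All 6 PPARG lists held 108 members (5.29%, against 27.1% of all merged regions), among the strongest those in Tnni1, Sntb1 and Litaf.

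Limma on PPARG peak length called 177 of 1449 member loci (12.2%), 81 higher and 96 lower in the cold, where 10.2% of all 14102 loci were called, 5.05% higher and 5.13% lower. Kdr, the gene of a receptor for vascular endothelial growth factor, had 7.80, 9.44 and 9.14 kb in the cold and 3.66, 4.49 and 4.09 kb at RT (log2 difference 1.33, SE 0.0952, limma adjusted p = 0.00125). Cdh5 and Cd34 were called higher as well, by 1.13 and 1.45 on the log2 scale (limma adjusted p = 0.0043 and 0.0066). The members nearest to Kdr, Cdh5 and Cd34 lay 102, 619 and 35.9 kb from these genes, outside the loci compared. Sgk1, a kinase gene responsive to glucocorticoids and insulin, named after its values were seen, had 5.75, 7.62 and 7.06 kb in the cold and 3.78, 3.63 and 3.65 kb at RT (log2 difference 1.10, SE 0.107, limma adjusted p = 0.00245).

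PPARG length fell at Sntb1, Arap1, Camk2d, Fam20c, Ahcyl2, Gm46963, Ebf2 and Acsl1, among the loci of named genes. Of 13 alternative settings, 5 kept the call at Fam20c, 4 at Ebf2, 3 at Acsl1, and 2 at each of Ahcyl2 and Gm46963. Arap1 had 3.26, 2.99 and 3.43 kb in the cold and 8.85, 10.9 and 6.29 kb at RT (log2 difference −0.96, SE 0.146, limma adjusted p = 0.0083). Without scaling to library totals the split of the called member loci was 13 higher and 182 lower (13.5% called), that of all loci was 155 higher and 1346 lower (10.6% called), and the median of all loci shifted from 0.03 to −0.22, so directions here are relative to the library totals. Leaving out 1 library gave 44 to 106 called member loci (3.02 to 7.24%, where 2.68 to 5.92% of all loci were called), the fewest without RT replicate 2.

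PPARA lists overlapped 38, 17 and 22 members in the cold and 129 and 107 at RT. The means were 25.7 ± 11.0 (SD, n = 3) and 118 ± 15.6 (SD, n = 2), with the smallest possible p of 0.1 by a two-sided exact permutation test (adjusted over 3 tests 0.15). The PPARA cold lists were short, with 7317 to 11107 peaks against 23589 and 26388 at RT. Cut to 7317 peaks each, the lists overlapped 20.7 members in the cold and 20 at RT on average, which reversed the direction (exact permutation p = 0.9). The direction was thus not kept at equal list length.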

How the data were processed

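The files were narrowPeak lists, 1 for each of 35 ChIP libraries, and no file of the 17 input libraries was analysed here. The submitters' processing notes name, with no role, the peak caller MACS2 2.2.7.1, BWA 0.7.17 and Trim Galore 0.6.0 among others, and the build GRCm38.p6. Fold enrichment, a ratio, was deposited by the authors for each peak and only describes or ranks peaks here. The deposited −log10 p ranked peaks and the deposited −log10 q set the stricter lists. The deposited score and summit offset were not used in any result. Read depth was not given in the sources used here, so the number of peaks per library (2347 to 60204) and its covered length stand in for depth, and a region missing from a list may be a peak that fell short of the caller's threshold.

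The members and the gene lists were chosen with earlier results of these data known. Regions were intersected in Python 3.11.15, and each member was given its nearest protein-coding gene body among 21627 RefSeq genes (the smallest body where several held it). Loci were bodies with 10 kb on each side. Counts of members per library were compared by exact permutation over libraries, adjusted by Benjamini-Hochberg over 3 tests. Covered length scaled to the library total was tested with limma 3.58.1 (R 4.3.3, trended variances) on log2(length + 100 bp) for regions and log2(length + 500 bp) for loci with peaks in at least 3 of 6 libraries, with p adjusted over all features. The Txnip libraries did not enter these fits. On simulated data this recovered 27, 74 and 57% of 100 doubled features for cohort regions, cohort loci and PPARG loci.

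Named members followed a rule: the 12 with the highest lower −log10 q; the genes nearest to the most members; cohort gains and up to 3 losses; up to 6 members with all PPARG cold lists and up to 4 with no RT list besides; up to 3 per gene list; up to 6 with a gene start; and Txnip and Ucp1. Alternatives were stricter peaks, lists of equal length, coverage of at least 50% of a region, merging within 500 bp, other pseudocounts, scaling and filters, each library left out, and a replicate block. Replicate numbers did not pair the libraries by the correlation of their deviations for cohort regions or PPARG loci. At cohort loci all 3 cold libraries correlated best with their own number, with correlations of 0.07 to 0.12.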

Additional observations from a re-analysis of the deposited data

How the results depend on the processing

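The number of members was 2043 as deposited and 580 with lists of equal length, and leaving out 1 of the 8 lists gave 2120 to 9512, the highest values without knockout cold replicate 2 (9512), without knockout cold replicate 1 (6900) and without wild type cold replicate 2 (3208). The count of members in PPARA lists, cold minus RT, went from −92.3 to 0.667 with lists of equal length. The cohort and PPARG differences kept their sign under every setting run, and so did those of all 3 tests with members defined without either knockout cold library, an alternative added after the data were seen (−186.7 and −209 for the cohort, −313 and −204 for PPARG). Called member regions in the cohort were 7, but 0 with peaks of −log10 q of at least 5 because no member was then tested, and 0 to 41 with 1 library left out. Called cohort loci were 209, but 74 without scaling, and 63 to 301 with 1 library left out. Called PPARG loci were 177, and 44 to 106 with 1 library left out. Where 1 library was left out a feature needed peaks in 2 libraries, not 3. The cause of these moves was not tested.

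Same-numbered cold and RT libraries had correlations of their deviations from −0.06 to 0.12, and all 3 cold cohort libraries correlated best with their own number at loci. With a replicate block 0 member regions, 275 cohort loci (18.9%) and 114 PPARG loci (7.87%) of members were called, beside 4.44, 12.6 and 6.64% of all regions, cohort loci and PPARG loci, and exact sign flips over pairs gave p = 0.5, 0.25 and 0.5 for the cohort, PPARG and PPARA counts.

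Peak lists hold no signal below the caller's threshold, so a member absent from a list was not shown to lack acetylation. The exact permutation p-values over 3 against 3 libraries cannot go below 0.1.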
